A study of Mus musculus with 32 samples.

Results

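The matrix metalloproteinase genes described here are the 9 members Mmp2, Mmp3, Mmp9, Mmp10, Mmp11, Mmp12, Mmp13, Mmp14 and Mmp19, taken by symbol from the first column of the 4 deposited expression tables. They are 9 of the 20109 gene symbols that all 4 tables share, and 14 other Mmp genes are also in all 4. The tables come from 32 RNA-seq libraries of E0771, a mammary carcinoma cell line from C57BL/6 mice, and the study concerned the role of DDR1, a collagen-binding receptor tyrosine kinase, in mammary tumour growth. In culture, 3 libraries labelled Ddr1 wild-type (titled E0771-P, EV and Ctrl, in that order libraries 1 to 3) were set against 2 labelled Ddr1 knockout (titled 3-6 and 3-7, libraries 1 and 2). Tumours of wild-type or knockout cells in Rag1-/- mice, a strain that lacks mature T and B cells, gave 5 libraries each. Tumours moved from Rag1-/- mice into C57BL/6 mice and titled day 4 gave 4 wild-type and 5 knockout libraries. E0771 tumours in C57BL/6 mice titled day 6 gave 4 libraries after control IgG and 4 after an antibody named hDDR1 ECD, and their labels state no Ddr1 genotype. The labels give neither the age of the mice nor whether the knockout lines are single clones or the libraries separate cultures or animals. The p-values therefore cover the spread between these libraries, which may be technical. In culture that spread also holds any difference between the separately titled lines.

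Matrix metalloproteinases are zinc-dependent endopeptidases, most of them secreted as inactive proenzymes, that cut collagens, other matrix proteins and many signalling proteins. They are held in check by the tissue inhibitors of metalloproteinases (the Timp genes), and are switched on by other proteases such as furin, plasmin or other family members. In tumours their transcripts come from carcinoma cells and from host fibroblasts, macrophages, neutrophils and vessel cells. Collagen is also the ligand of DDR1. The tables measure transcripts and hold no measure of enzyme activity.

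The members with related functions lie partly side by side. Mmp13, Mmp12, Mmp3 and Mmp10 sit on chromosome 9 (GRCm38, GENCODE annotation) in a cluster of 10 Mmp genes that spans 427 kb, from 7272514 to 7699585. Within it Mmp13 runs from 7272514 to 7283331 on the plus strand, Mmp12 from 7344381 to 7369499 on the plus strand, Mmp3 from 7445822 to 7455975 on the plus strand and Mmp10 from 7502352 to 7510240 on the plus strand. Of the others, Mmp2 lies on chromosome 8 from 92827291 to 92853420 on the plus strand and Mmp9 on chromosome 2 from 164940780 to 164955850 on the plus strand. Mmp11 lies on chromosome 10 from 75923222 to 75936496 on the minus strand, and Mmp19 on the same chromosome from 128790910 to 128800824 on the plus strand. Mmp14 lies on chromosome 14 from 54431612 to 54445364 on the plus strand. Mmp11 overlaps Chchd10, Mmp12 overlaps Mmp1b, and Mmp19 overlaps Tmem198b and Gm47093, all on the opposite strand. The library kit was stranded, but whether counting used strand is not given in the sources used here, so reads in these overlaps are uncertain. Coding sequences of Mmp3 and Mmp10 were 80.4% identical over aligned bases, the highest of all member pairs, and the next pair, Mmp9 and Mmp11, was 68.9% identical. Of the 50-base words of the Mmp3 transcript 8.39% occurred in Mmp10 or Gm15244, and 8.37% of those of Mmp10 occurred in Mmp3, so some of their reads could be split between them. Knockout tumours at day 4 together held 11827 Mmp3 reads against 413 of Mmp10, so such reads could weigh more in the Mmp10 values than in those of Mmp3.

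Promoter windows from RefSeq (GRCm38.p6), from 250 bases before to 50 after each annotated start site, were matched for 6 members and 7 starts, of which Mmp12 has 2. The 150 bases before the start are shown for Mmp13 and Mmp11, the members called between tumours labelled knockout and wild-type in Rag1-/- hosts. They are also shown for Mmp3, Mmp10 and the downstream start of Mmp12, which share the chromosome 9 cluster with Mmp13. Each is written 5′ to 3′ on the strand of the gene, and capitals mark TGANTCA, the AP-1 motif, and TATAAA, the TATA motif.
Mmp13, chr9:7272364-7272513, plus strand: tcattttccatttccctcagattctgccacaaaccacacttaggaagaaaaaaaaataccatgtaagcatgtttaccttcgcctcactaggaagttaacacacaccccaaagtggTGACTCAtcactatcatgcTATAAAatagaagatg
Mmp12, downstream start, chr9:7347224-7347373, plus strand: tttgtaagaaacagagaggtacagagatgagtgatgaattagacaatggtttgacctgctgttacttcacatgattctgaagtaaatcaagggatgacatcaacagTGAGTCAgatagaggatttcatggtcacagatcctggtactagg
Mmp3, chr9:7445672-7445821, plus strand: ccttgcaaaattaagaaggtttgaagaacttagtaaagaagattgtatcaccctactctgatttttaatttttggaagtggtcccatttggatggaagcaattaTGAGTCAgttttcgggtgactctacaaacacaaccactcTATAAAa
Mmp10, chr9:7502192-7502341, plus strand: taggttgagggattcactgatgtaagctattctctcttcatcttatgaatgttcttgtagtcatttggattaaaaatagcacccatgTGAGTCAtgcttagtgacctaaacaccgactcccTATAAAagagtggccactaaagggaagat
Mmp11, chr10:75932503-75932652, minus strand: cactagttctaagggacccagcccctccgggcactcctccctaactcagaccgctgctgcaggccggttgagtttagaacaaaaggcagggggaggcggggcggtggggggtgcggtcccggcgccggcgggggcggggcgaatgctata

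Counted from the start site, TGANTCA began at base -35 in Mmp13, -44 in Mmp12 (downstream start), -46 in Mmp3 and -63 in Mmp10. TATAAA began at -16 in Mmp13, -7 in Mmp3 and -29 in Mmp10, and at base 5 after the downstream start of Mmp12, outside the stretch shown. The windows of Mmp11 and Mmp14 held neither motif, nor did the upstream window of Mmp12. Searched on both strands, TGANTCA occurred in 7.81% and TATAAA in 13.6% of all 32851 RefSeq promoter windows of this length, and the motifs do not overlap each other. AGGAAG, the core of an ETS motif, was present in windows of Mmp3, Mmp12, Mmp13 and Mmp14 and in 35.4% of all windows. A match describes letters and not a bound site. Mmp2, Mmp9 and Mmp19 were not matched.

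Libraries held 18967300 to 39732635 reads in genes. Ddr1 itself had 171 to 213 RPM (reads scaled to the library total) in wild-type culture and 19.0 to 26.7 in knockout culture. It had 174 to 189 RPM in wild-type tumours of Rag1-/- hosts and 33.3 to 42.3 in knockout ones, and at day 4 132 to 175 in wild-type and 27.9 to 49.7 in knockout tumours, so each library labelled knockout was below each wild-type library of its table. At day 6 it had 15.9 to 22.1 RPM with IgG and 18.5 to 28.5 with antibody. All day 6 libraries were thus below each library labelled wild-type in the other tables. They lay within or below the 19.0 to 49.7 RPM of the libraries labelled knockout. These levels come from separate tables, and the reason for the low day 6 level was not tested. Of 10 macrophage and monocyte markers, 9 were used in the culture and Rag1-/- tables and 10, with Adgre1, at days 4 and 6. The 9 summed to 880 to 1495 RPM in tumours of Rag1-/- hosts, and the 10 to 1565 to 12319 RPM in C57BL/6 hosts. The 11 fibroblast markers summed to 1035 to 18073 RPM in tumours. In culture the 9 macrophage markers gave 15.8 to 53.1 RPM, with C1qc at 0 in all 5 libraries. The fibroblast sum in culture was 176 to 238 RPM in wild-type and 443 to 919 in knockout cells, with Lum, Thy1 and Postn at 0 in all 5. Of 5 mammary epithelial keratin and adhesion markers the sum was 205 to 239 RPM in wild-type and 164 to 186 in knockout culture, and none was at 0 in all libraries of a group. In a bulk library, fewer cells of a type and less RNA per cell cannot be told apart.

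Levels across culture and tumours come from separately normalized tables and are a description in RPM, with no test. For 5 members, Mmp2, Mmp12, Mmp13, Mmp14 and Mmp19, each of the 27 tumour libraries was above each of the 5 culture libraries. For Mmp3, Mmp9, Mmp10 and Mmp11 the ranges overlapped. Mmp9 alone of the 9 members had a lower median in tumours than the lowest culture library, although its highest tumour value lay just above that library. Marker sums of macrophages and fibroblasts also differed between culture and tumours, as given above, and their part in these levels was not tested.

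**Figure D1:**
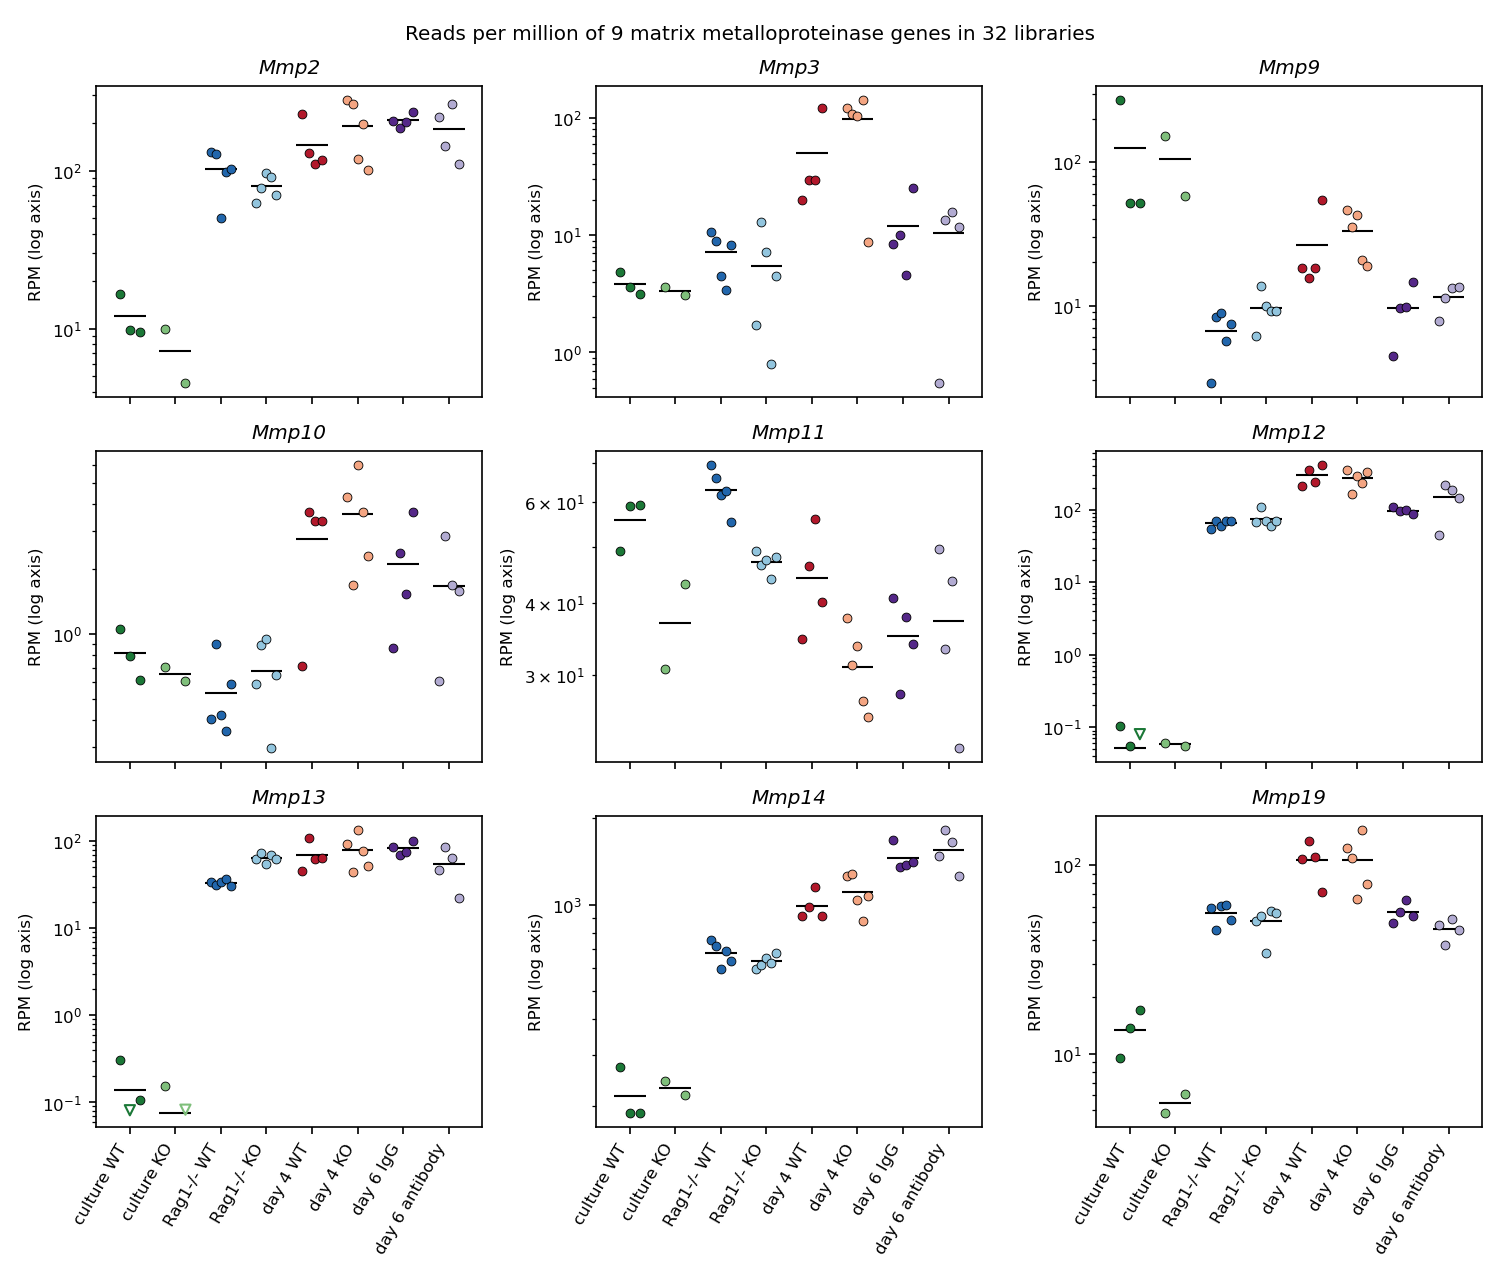
RPM (log axis, a scale per panel) of the 9 genes in each of the 32 libraries, by group, with black lines for group means and open triangles at the level of 3 reads for libraries with 0 reads. Mmp12 and Mmp13 lay at or below 0.307 RPM in culture and between 22.3 and 412 RPM in tumours, whereas Mmp9 was highest in a culture library, at 271 RPM.

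Among the collagen-cutting enzymes, Mmp13, a collagenase, was close to absent from cultured cells. Culture libraries held 9, 0 and 4 Mmp13 reads when wild-type against 5 and 0 when knockout. A count of 0 allows up to 3 reads, or 0.0815 RPM in wild-type library 2, and covers counting error only. Its RPM was 0.138 ± 0.156 in wild-type culture, 0.0764 ± 0.108 in knockout culture, 33.5 ± 2.63 in wild-type and 64.6 ± 7.11 in knockout tumours of Rag1-/- hosts, 70.3 ± 27.4 in wild-type and 80.1 ± 35.7 in knockout day 4 tumours, 83.1 ± 13.4 after IgG and 54.5 ± 26.9 after antibody. The Rag1-/- wild-type libraries, 30.3 to 37.0 RPM, were all below the Rag1-/- knockout libraries, at 54.3 to 73.2 RPM. Ordered by mean, neighbouring tumour groups overlapped. Mmp14, a membrane-anchored enzyme that cuts fibrillar collagen and activates the Mmp2 proenzyme, was abundant in all libraries. Its RPM was 217 ± 47.8 in wild-type culture, 231 ± 18.3 in knockout culture, 679 ± 61.4 in wild-type and 635 ± 32.5 in knockout tumours of Rag1-/- hosts, 991 ± 113 in wild-type and 1105 ± 167 in knockout day 4 tumours, 1457 ± 154 after IgG and 1551 ± 242 after antibody. Culture libraries were lowest, then those from Rag1-/- hosts, then those at day 4, with no overlap between these settings. All 4 IgG libraries and 3 of 4 antibody libraries at day 6 were higher still, and the 2 groups within each setting overlapped.

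Of the gelatinases, which cut denatured and basement membrane collagen, Mmp2 was higher in tumours and Mmp9 in most culture libraries. For Mmp2, RPM was 12.0 ± 4.00 in wild-type culture, 7.29 ± 3.84 in knockout culture, 102 ± 32.4 in wild-type and 79.8 ± 14.4 in knockout tumours of Rag1-/- hosts, 146 ± 55.2 in wild-type and 193 ± 81.9 in knockout day 4 tumours, 209 ± 20.0 after IgG and 184 ± 70.2 after antibody. Neighbouring tumour groups all overlapped. For Mmp9, RPM was 125 ± 127 in wild-type culture, 105 ± 66.0 in knockout culture, 6.63 ± 2.41 in wild-type and 9.60 ± 2.69 in knockout tumours of Rag1-/- hosts, 26.7 ± 18.7 in wild-type and 32.9 ± 12.5 in knockout day 4 tumours, 9.57 ± 4.14 after IgG and 11.4 ± 2.59 after antibody. Culture library values were 271, 52.2 and 51.6 RPM in wild-type against 151 and 57.9 in knockout cells, so the E0771-P and 3-6 libraries stood above the other 3 and the labelled genotypes overlapped. At day 4 both groups of Mmp9 values lay above those in Rag1-/- hosts and at day 6.

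The stromelysins Mmp3 and Mmp10, which cut proteoglycans and fibronectin and can activate other metalloproteinase proenzymes, were highest at day 4. Mmp3 RPM was 3.87 ± 0.849 in wild-type culture, 3.36 ± 0.392 in knockout culture, 7.13 ± 3.05 in wild-type and 5.44 ± 4.92 in knockout tumours of Rag1-/- hosts, 50.04 ± 47.9 in wild-type and 96.9 ± 51.4 in knockout day 4 tumours, 12.0 ± 8.96 after IgG and 10.4 ± 6.73 after antibody. Day 4 libraries ranged from 8.69 to 141 RPM, the lowest of them inside the range of the other tumours. Mmp10 RPM was 0.820 ± 0.224 in wild-type culture, 0.655 ± 0.0689 in knockout culture, 0.535 ± 0.223 in wild-type and 0.674 ± 0.261 in knockout tumours of Rag1-/- hosts, 2.76 ± 1.37 in wild-type and 3.58 ± 1.71 in knockout day 4 tumours, 2.10 ± 1.199 after IgG and 1.67 ± 0.913 after antibody. Most Mmp10 values rest on few reads, 6 to 23 per library in Rag1-/- hosts, and neighbouring groups overlapped throughout. Reads of sequence shared with Mmp3, as given above, could also enter the Mmp10 values, and their part was not tested. Mmp11, a stromelysin-named enzyme that furin activates inside the cell and that is known from the stroma of breast carcinomas, varied least in mean between settings. Its RPM was 55.8 ± 5.64 in wild-type culture, 36.9 ± 8.71 in knockout culture, 63.0 ± 5.29 in wild-type and 47.1 ± 1.97 in knockout tumours of Rag1-/- hosts, 44.3 ± 9.19 in wild-type and 31.0 ± 4.98 in knockout day 4 tumours, 35.1 ± 5.66 after IgG and 37.2 ± 12.0 after antibody. In order of group mean, only culture wild-type and Rag1-/- knockout were neighbours with no overlap.

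Mmp12, the macrophage elastase, had 0 to 3 reads per culture library and was present in every tumour. Its RPM was 0.0523 ± 0.0513 in wild-type culture, 0.0581 ± 0.00429 in knockout culture, 64.7 ± 7.22 in wild-type and 74.9 ± 19.6 in knockout tumours of Rag1-/- hosts, 305 ± 91.6 in wild-type and 275 ± 78.3 in knockout day 4 tumours, 97.2 ± 9.39 after IgG and 148 ± 75.4 after antibody. All 9 day 4 libraries, 164 to 412 RPM, were above all 10 from Rag1-/- hosts, at 54.5 to 109 RPM. Mmp19, a secreted enzyme that cuts basement membrane proteins, was likewise higher in tumours. Its RPM was 13.4 ± 3.76 in wild-type culture, 5.47 ± 0.866 in knockout culture, 55.5 ± 6.98 in wild-type and 50.2 ± 9.27 in knockout tumours of Rag1-/- hosts, 106 ± 25.6 in wild-type and 106 ± 34.7 in knockout day 4 tumours, 56.1 ± 6.84 after IgG and 45.8 ± 5.93 after antibody. Each of the 9 day 4 libraries, from 65.9 RPM upward, exceeded all from Rag1-/- hosts and at day 6, where the highest had 65.3 RPM.

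Levels of different members are compared per length, as RPKM (RPM per kilobase of the transcript with the longest coding sequence). Mmp14 had the highest mean RPKM in each of the 8 groups, from 83.4 ± 18.4 in wild-type culture to 597 ± 93.4 at day 6 with antibody. It made up 54.5% of the summed RPKM of the 9 members in wild-type and 62.2% in knockout culture. In tumours its share was 69.7% (wild-type) and 68.5% (knockout) in Rag1-/- hosts, 60.8% and 60.5% in day 4 tumours, 76.8% with IgG and 78.9% with antibody. Mmp9 came next in culture, at 39.4 ± 39.9 RPKM in wild-type and 32.9 ± 20.8 in knockout cells, where the wild-type value rests on the E0771-P library. Without it the wild-type mean was 16.3 RPKM, below the 25.8 of Mmp11, and Mmp11 exceeded Mmp9 in 3 of the 5 culture libraries. In Rag1-/- wild-type tumours Mmp2 and Mmp11 followed, at 33.1 ± 10.5 and 27.5 ± 2.31 RPKM, and overlapped each other. Mmp12 came next at day 4, at 84.5 ± 25.4 RPKM in wild-type tumours, where its libraries overlapped those of Mmp2. Mmp2 came next at day 6, at 67.8 ± 6.496 RPKM with IgG. Mmp10 had the lowest mean RPKM in all 6 tumour groups, and Mmp12 in both culture groups.

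**Figure D2:**
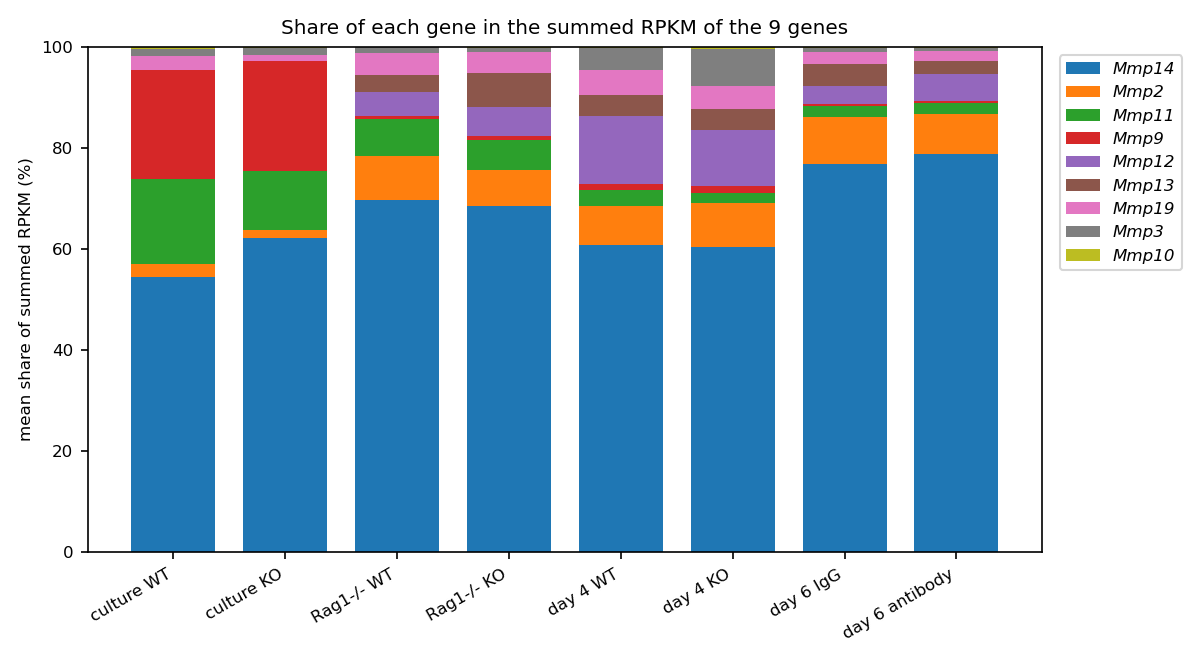
Mean share (%, vertical axis) of each gene in the summed RPKM of the 9 genes, as stacked bars for the 8 groups. Mmp14 fills 54.5% to 78.9% of each bar, and the Mmp9 share is 21.5% and 21.9% in culture and at most 1.44% in tumours.

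In culture the comparison asks how cells without Ddr1 differ in the absence of a host. None of the 7 members tested was called, and Mmp12 and Mmp13 had table means below the 10 normalized reads required. The lowest adjusted p-values were those of Mmp19 and Mmp11, whose levels were lower in both knockout libraries than in all wild-type libraries. Normalized read counts of Mmp19 were 327, 464 and 575 in wild-type libraries 1 to 3 against 167 and 213 in knockout libraries 1 and 2. The log2 fold change of normalized count + 1, the scale of all fold changes here, was -1.23 (SE 0.26, 95% interval from -1.86 to -0.60, limma adjusted p = 0.0811). Mmp11 had 1692, 2016 and 1994 normalized reads in wild-type against 1055 and 1509 in knockout cells, a log2 fold change of -0.59 (SE 0.17, 95% interval from -0.995 to -0.18, limma adjusted p = 0.139). Groups also did not overlap for 36.2% of all 11911 genes tested, so this separation of 2 of 7 members is near the background, and 0.327% of all genes were called. Both had an unadjusted limma p under 0.05, as did 18.8% of all genes. Without the E0771-P library, limma called Mmp19 and Mmp11 lower (adjusted p = 0.0106 and 0.0441) and Mmp14 higher (log2 fold change 0.32, adjusted p = 0.0461), where 14.1% of all 11736 genes were called.

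DESeq2 on whole reads called the same 2 members, Mmp19 and Mmp11, lower, where it called 4.84% of all genes lower, and edgeR called none. In the authors' deposited table their adjusted p-values were 0.00405 and 0.0475, with 3.67% of its genes under 0.05. Mmp14 had 9319, 6450.4 and 6372 normalized reads in wild-type against 8368 and 7642 in knockout cells. Its groups overlapped, with a log2 fold change of 0.14 (SE 0.17, limma adjusted p = 0.728). For Mmp2 it was -0.75 (SE 0.38, limma adjusted p = 0.343), with 569.5, 336 and 322 against 343 and 160.2 normalized reads. For Mmp3, Mmp9 and Mmp10 log2 fold changes lay between -0.26 and 0.08, and under quantile normalization those of Mmp3 and Mmp10 changed sign, to 0.0017 and 0.13, as did that of Mmp9 with edgeR and DESeq2, to -0.25 with each. The fibroblast marker sum was higher and the mammary epithelial sum lower in both knockout libraries than in all wild-type libraries, as given above. Skeletal muscle markers were also lower, at 2.97 to 3.58 RPM against 19.5 in E0771-P, 4.16 in EV and 5.58 in Ctrl. The upper end of the wild-type range thus rests on E0771-P, and Tnnt3 and Myh4 were at 0 in all 5 libraries. The part of these markers in the members' values was not tested.

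Inhibitor genes in culture were led by Timp2, at 10414 ± 1100.2 normalized reads in wild-type (n = 3) and 10158 ± 125 in knockout cells (n = 2), a log2 fold change of -0.03 (SE 0.11, limma adjusted p = 0.911). Timp1 had 1096 ± 303 and 1534 ± 45.5 normalized reads, with a log2 fold change of 0.52 (SE 0.21, limma adjusted p = 0.252), and Timp3 and Timp4 were below the minimum. Of the 34 tested genes in the lists of other Mmp genes, inhibitors, activators and the plasminogen system, surface partners, AP-1 and ETS factors and inducing cytokines, limma and edgeR called none, 5 had an unadjusted limma p under 0.05, and DESeq2 called 3. Over all genes 18.8% had an unadjusted limma p under 0.05, and DESeq2 called 8.89%.

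In Rag1-/- hosts the comparison sets tumours of knockout cells against tumours of wild-type cells in mice without T and B cells. The labels do not say which knockout line formed the tumours, here or at day 4. Loss of Ddr1 and any other difference between the lines therefore cannot be told apart. Mmp13, the collagenase, rose in knockout tumours and Mmp11 fell, and the other 7 members were not called. Mmp13 normalized read counts were 735, 677, 740.0, 806 and 635 in wild-type tumours 1 to 5 and 1331, 1532, 1119, 1447 and 1326 in knockout tumours 1 to 5. All 5 knockout libraries were above all 5 wild-type libraries. The means were 719 ± 65.3 (SD, n = 5) and 1351 ± 156 (SD, n = 5), a log2 fold change of 0.91 (SE 0.08, 95% interval from 0.73 to 1.09, limma adjusted p = 1.62e-05), or 1.88-fold. Mmp11 normalized read counts were 1482, 1414, 1329.7, 1363 and 1161 in wild-type against 1039, 976, 980.1, 924 and 1005 in knockout tumours. All 5 knockout libraries were below all 5 wild-type libraries. The means were 1349.9 ± 120.2 (SD, n = 5) and 985 ± 42.1 (SD, n = 5), and Mmp11 fell by 0.45 in log2 units (limma adjusted p = 0.000352, SE 0.06).

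The count of 2 of 9 members stands beside a background of 22.7% of all 12795 genes called, 11.3% higher and 11.4% lower, with 7.85% of genes separated upward and 7.14% downward between groups (15% in all), and is therefore no result about the members as a set. In the authors' deposited table the same 2 members had adjusted p-values under 0.05, 7.29e-15 for Mmp13 and 8.25e-07 for Mmp11, as did 11.2% of its genes. Marker sums overlapped between genotypes for macrophages (948 to 1156 RPM in wild-type, 880 to 1495 in knockout) and fibroblasts (1180 to 1972 and 1035 to 1619). Of the 11 fibroblast markers Pdgfra rose, and Pdgfrb and Dpt fell, and of 9 macrophage markers tested Mrc1 rose. Epcam, an epithelial adhesion gene, rose by 2.15 in log2 units (limma adjusted p = 3.02e-05), the only call among the 4 mammary epithelial markers tested. Their part in the Mmp13 and Mmp11 values was not tested.

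**Figure D3:**
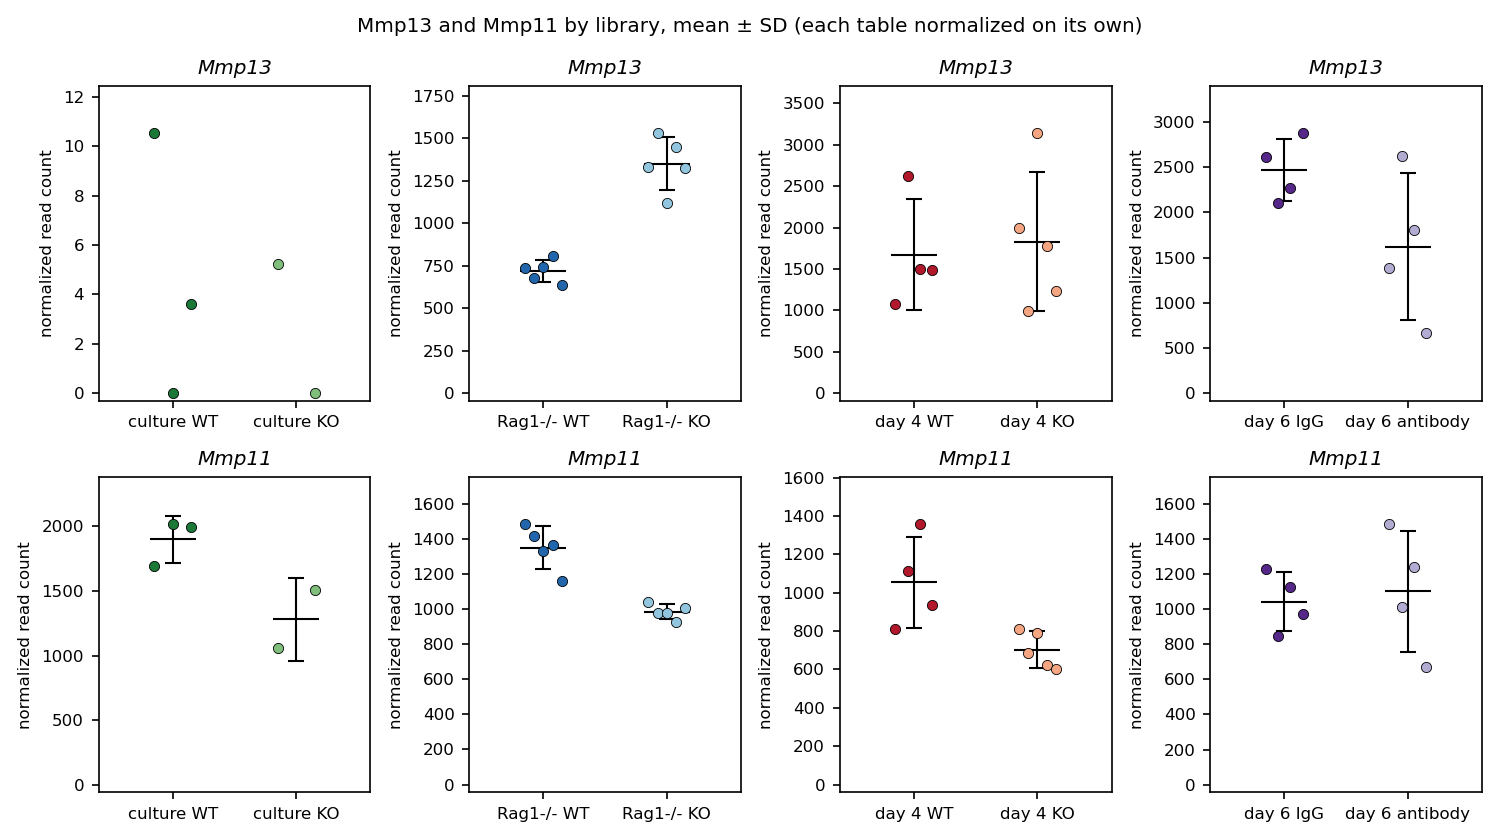
Normalized read counts of Mmp13 (top) and Mmp11 (bottom) by library in the 4 tables, with group mean and SD as bars (left out for Mmp13 in culture). In Rag1-/- hosts knockout libraries lie at 1119 to 1532 for Mmp13, above all wild-type libraries, and at 924 to 1039 for Mmp11, below all of them.

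Of the members not called in Rag1-/- hosts, Mmp14 had 16030.3, 15358, 12909.6, 15051 and 13392 normalized reads in wild-type against 12599, 12891, 13429, 13192 and 14260.4 in knockout tumours, with overlapping groups. Its log2 fold change was -0.13 (SE 0.06, 95% interval from -0.26 to 0.00, limma adjusted p = 0.153). Mmp9 had 61.8, 177, 191, 123 and 157 and 129.9, 287, 203, 192 and 191 normalized reads, and a log2 fold change of 0.55 (SE 0.27, 95% interval from -0.03 to 1.13, limma adjusted p = 0.159). Its groups overlapped, with the lowest values in wild-type and the highest in knockout tumours. Mmp2 had 2807, 2733, 1088, 2128 and 2162 normalized reads in wild-type against 1316, 1636, 1994, 1925 and 1462 in knockout tumours. Wild-type tumour 3 was the lowest of all 10 and the other 4 were the highest of all 10. The log2 fold change was -0.33 (SE 0.21, 95% interval from -0.78 to 0.12, limma adjusted p = 0.273), and without wild-type tumour 3 Mmp2 was called lower, at -0.57 (limma adjusted p = 0.00916), with 18.4% of all 12802 genes called. Mmp3 spread widest, over 226, 192, 96.8, 74.5 and 172 normalized reads in wild-type against 36.2, 272, 148, 16.7 and 93.6 in knockout tumours. Knockout tumours gave both the highest and the lowest Mmp3 value, with a log2 fold change of -0.89 (SE 0.59, 95% interval from -2.15 to 0.37, limma adjusted p = 0.297). The log2 fold changes of Mmp10, Mmp12 and Mmp19 lay between -0.19 and 0.26, with limma adjusted p-values of 0.315 to 0.621.

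The inhibitors Timp1, Timp2 and Timp3 were not called in Rag1-/- hosts, and no inhibitor was, of 4 tested. Timp2, which bridges Mmp14 and the Mmp2 proenzyme, had 18882 ± 1625 normalized reads in wild-type and 18217 ± 1669 in knockout tumours (n = 5 each). Log2 fold changes were -0.05 for Timp2, -0.01 for Timp1 and -0.16 for Timp3, with limma adjusted p-values of 0.422 to 0.939, and Timp4 was below the minimum. Of 9 tested genes for activators and the plasminogen system 2 rose and none fell. Plau, which encodes urokinase, rose by 0.47 (limma adjusted p = 0.000423, SE 0.07), from 1622 ± 80.6 to 2253 ± 248.8 normalized reads. Plat, which encodes tissue plasminogen activator, rose by 1.04 (limma adjusted p = 0.000895, SE 0.17), from 963 ± 240.2 to 1979 ± 425 normalized reads (n = 5 each). Each of these proteases turns plasminogen into plasmin. The median log2 fold change of this list was -0.02, against -0.0035 over all genes.

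Among 8 surface partners and clearance genes 2 rose and 1 fell. Itgb3 rose by 0.66 (limma adjusted p = 0.000379, SE 0.09) and Itgav by 0.24 (limma adjusted p = 0.0174, SE 0.06), genes whose products pair as the vitronectin receptor. Thbs2, for a thrombospondin that takes part in clearing Mmp2, fell by 0.83 (limma adjusted p = 0.00440, SE 0.17), from 1205 ± 293 to 674 ± 157 normalized reads (n = 5 each). Among 11 AP-1 and ETS factor genes Ets1 rose by 0.41 (limma adjusted p = 6.66e-05, SE 0.05), while Ets2 fell by 0.20 (limma adjusted p = 0.0149, SE 0.05) and Runx2 by 0.33 (limma adjusted p = 0.00873, SE 0.08), and no Fos or Jun gene was called. Of 8 tested inducing cytokine genes 2 rose, both for related cytokines. Lif rose by 1.66 (limma adjusted p = 0.000343, SE 0.23), from 31.0 ± 12.3 to 96.6 ± 20.5 normalized reads, and Il11 by 1.52 (limma adjusted p = 0.00184, SE 0.28), from 12.5 ± 4.83 to 36.9 ± 9.33 (n = 5 each). Mmp28, the only call among 6 other Mmp genes tested, fell by 0.43 (limma adjusted p = 0.0339, SE 0.13). In all, limma called 11 of the 46 list genes tested, against the background of 22.7% over all genes.

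At day 4 after transfer to C57BL/6 mice, the comparison asks whether the genotypes differ once tumours meet an intact immune system. No member was called among 9 tested, where 0.0354% of all 14105 genes were. Mmp11 had the lowest p. Its normalized read counts were 809, 1112, 1356 and 937 in wild-type tumours 1 to 4 and 813, 686, 789, 621 and 602 in knockout tumours 1 to 5. The groups met only where wild-type tumour 1 lay just below knockout tumour 1. Knockout minus wild-type, the log2 fold change was -0.57 (SE 0.17, 95% interval from -0.94 to -0.20, limma adjusted p = 0.190), with an unadjusted p of 0.00628, the only member under 0.05, where 15% of all genes were. edgeR called no member, and DESeq2 called Mmp11 lower (-0.58, adjusted p = 0.0381), where it called 2.64% of all genes lower. In the authors' deposited table the adjusted p of Mmp11 was 0.0398, and 4.72% of its genes were under 0.05.

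Mmp13 had 1075, 2629, 1503 and 1485 normalized reads in wild-type against 1989, 987, 3145, 1783 and 1234 in knockout tumours at day 4. The groups overlapped over most of their range, with a log2 fold change of 0.09 (SE 0.34, 95% interval from -0.67 to 0.85, limma adjusted p = 0.926). For Mmp2 the counts were 5315, 3095, 2661 and 2717 and 6051, 5849.9, 2776, 4554 and 2411. Its 4 highest libraries, wild-type tumour 1 and knockout tumours 1, 2 and 4, were at 4554 to 6051 and the other 5 at 2411 to 3095. The same 4 libraries had fibroblast marker sums of 13471 to 18073 RPM and macrophage sums of 3509 to 4542 RPM, against 3713 to 4989 and 1565 to 2369 RPM in the other 5. Adipocyte sums were likewise higher in these 4, at 394 to 5076 against 34.5 to 246 RPM, as were T cell and B cell sums. Sums of the remaining marker lists overlapped between the 4 and the 5. The log2 fold change of Mmp2 was 0.29 (SE 0.32, limma adjusted p = 0.698), and the part of these markers in it was not tested.

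Mmp3 counts at day 4 were 463, 702, 711 and 2844 normalized reads in wild-type against 2641, 2393, 2428, 3249.9 and 207 in knockout tumours. Wild-type tumour 4 stood with the 4 high knockout tumours and knockout tumour 5 with the low wild-type tumours. Its log2 fold change was 0.82 (SE 0.82, 95% interval from -0.99 to 2.64, limma adjusted p = 0.666), an interval that holds changes of either sign. Mmp9 had 425, 374, 439.7 and 1278 and 997, 778, 1012, 481 and 448 normalized reads. Wild-type tumour 4 was again the highest of its group, and its neutrophil marker sum of 639 RPM was the highest of the 9 libraries, the others having 98.9 to 389. Knockout tumour 3, with the next highest Mmp9 count, had the lowest neutrophil sum of the 9. Mmp9 is known as a product of neutrophils, among other cells. Its log2 fold change was 0.36 (SE 0.39, limma adjusted p = 0.701), and the part of neutrophil markers in it was not tested.

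For Mmp10, Mmp12, Mmp14 and Mmp19 the day 4 groups overlapped, with log2 fold changes of 0.41, -0.21, 0.09 and -0.09 in that order and limma adjusted p-values of 0.738 to 0.892. Keratinocyte marker sums were 12.4 to 612 RPM in knockout and 0.688 to 1.81 RPM in wild-type tumours at day 4. Of 5 red blood cell genes Alas2 was the only one not at 0, with 11.9 to 78.2 RPM in knockout and 2.02 to 5.85 in wild-type tumours. Adipocyte sums overlapped, at 127 to 5076 and 34.5 to 394 RPM. The part of these markers in the members' day 4 values was not tested. Timp2 had 16942 ± 1882 normalized reads in wild-type (n = 4) and 13355 ± 1193 in knockout tumours (n = 5), a log2 fold change of -0.34 (SE 0.11, limma adjusted p = 0.224). Log2 fold changes were 0.26 for Timp1, 0.89 for Timp3 and 2.44 for Timp4, none called. Of the 50 tested genes in the 6 lists, limma and edgeR called none, 14 had an unadjusted limma p under 0.05 and DESeq2 called 4. Over all genes 15% had an unadjusted limma p under 0.05, and DESeq2 called 4.88%. Among the 11 AP-1 and ETS factor genes 10 had a log2 fold change below 0, with a median of -0.29, where 49.7% of all genes were below 0. Inducing cytokines had 7 of 8 tested genes below 0, also with a median of -0.29, and surface partners 6 of 8. Below 0 were 4 of 8 other Mmp genes, 2 of 6 inhibitors and 5 of 9 activator and plasminogen genes.

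The knockout effect at day 4 was set against that in Rag1-/- hosts for each gene, using the estimates of the limma fits. No member passed an adjusted p of 0.05, and 2.99% of 11247 genes did. At an unadjusted p under 0.05 stood 18.7% of these genes and 1 member, Mmp13, whose log2 fold change was 0.91 in Rag1-/- hosts and 0.09 at day 4. The difference, day 4 minus Rag1-/-, was -0.82 (SE 0.35, 95% interval from -1.59 to -0.04, unadjusted p = 0.0401 and adjusted p = 0.245 from the limma fits). Mmp11 had log2 fold changes of -0.45 in Rag1-/- hosts and -0.57 at day 4, with a difference of -0.12 (95% interval from -0.50 to 0.27, limma adjusted p = 0.758). Mmp3 had the widest interval, from -0.39 to 3.82 around 1.72. Each host was deposited and normalized as its own table, and day 4 tumours had also been moved between mice. Host, transfer, time and table therefore cannot be told apart.

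**Figure D4:**
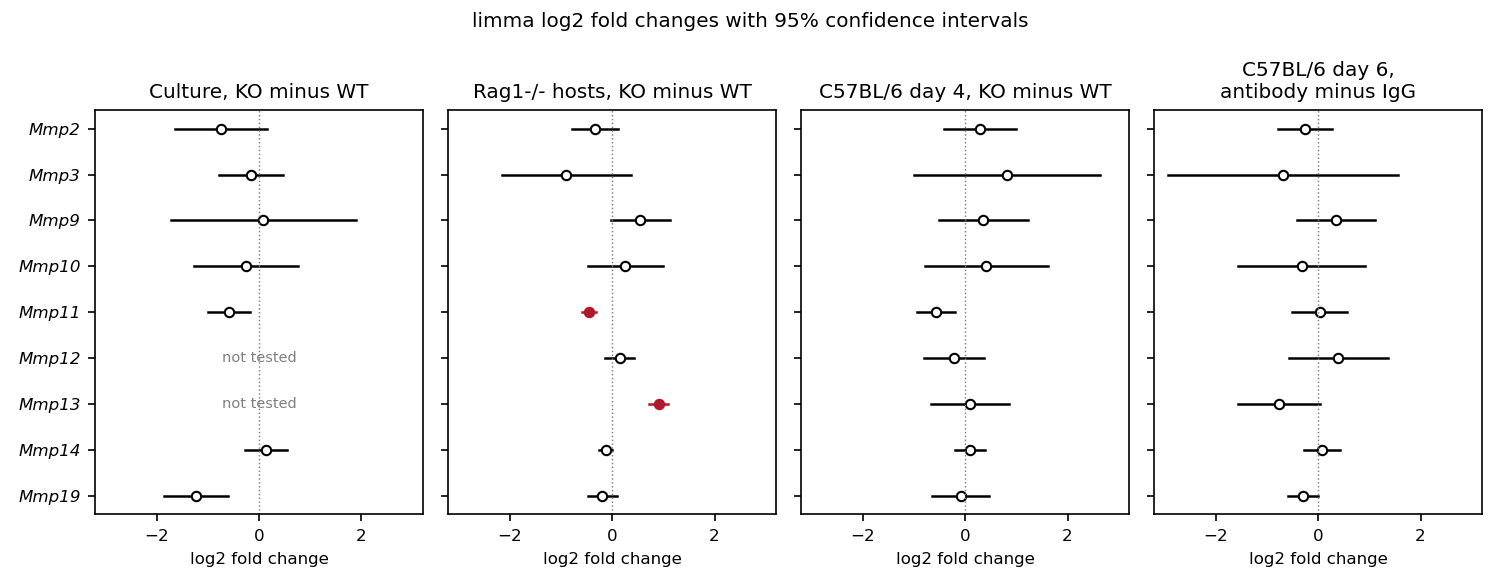
Log2 fold changes from limma (points) with 95% confidence intervals (lines) for the 9 genes in the 4 comparisons, filled red where the adjusted p was under 0.05. Mmp13 (0.91) and Mmp11 (-0.45) in Rag1-/- hosts are the 2 called values, and the Mmp11 point lies below 0 in the 3 comparisons of knockout with wild-type.

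At day 6 the comparison asks what the hDDR1 ECD antibody changes against control IgG. Ddr1 transcript was low in both groups, as given above, and the labels state no Ddr1 genotype. No member was called of 9 tested, and limma called none of the 14155 genes (0%), with 8.6% at an unadjusted p under 0.05. edgeR likewise called no gene. DESeq2 called 79 genes higher and 87 lower, 1.17% of all genes and none of them a member. In the authors' deposited table no member had an adjusted p under 0.05, where 0.995% of its genes did. Mmp19 had 1474, 1712, 1942 and 1551 normalized reads in IgG tumours 1 to 4 and 1444, 1152, 1471 and 1362 in antibody tumours 1 to 4. All IgG libraries were above all antibody libraries, by 1474 against 1471 at the closest, and 3.9% of all genes were separated in either direction. The log2 fold change was -0.30 (SE 0.13, 95% interval from -0.59 to -0.00, limma adjusted p = 0.517), with an unadjusted p of 0.0491, the only member under 0.05. In RPM the Mmp19 groups overlapped, with 49.0 in IgG tumour 1 and 51.7 in antibody tumour 3. Mmp13 had 2615, 2109, 2269 and 2880.5 normalized reads with IgG and 1388, 2621, 1806 and 668 with antibody. Antibody tumours 1, 3 and 4 were below all IgG tumours and antibody tumour 2 was among them. Antibody minus IgG, the log2 fold change was -0.76 (SE 0.35, 95% interval from -1.56 to 0.04, limma adjusted p = 0.517).

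Mmp12 had 3259.8, 2876, 2973 and 2475 normalized reads with IgG and 1326, 6638, 5291 and 4366 with antibody. The antibody group held the lowest value, in tumour 1, and the 3 highest, with a log2 fold change of 0.39 (SE 0.43, limma adjusted p = 0.702). Macrophage marker sums were 3246 to 6444 RPM with IgG and 2904 to 12319 with antibody, lowest in antibody tumour 1 and highest in antibody tumour 4, whose Mmp12 count was the lowest of the 3 high ones. IgG tumour 2, with 6444 RPM, had an Mmp12 count of 2876, so the order of the sums was not that of Mmp12, and their part in its values was not tested. Mmp3 likewise was lowest in antibody tumour 1, with 16.6, 408, 447 and 353 normalized reads with antibody and 254, 304, 135 and 719 with IgG, a log2 fold change of -0.69 (SE 1.001, limma adjusted p = 0.783). Skeletal muscle marker sums at day 6 were 119 to 5446 RPM with IgG and 5.22 to 183 with antibody. Adipocyte sums were 23.9 to 60.8 and 42.6 to 713 RPM, and mammary epithelial sums 185 to 207 and 185 to 515 RPM, in that order. The groups overlapped for each of these sums, and their part in the members' day 6 values was not tested.

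The log2 fold changes of Mmp2, Mmp9, Mmp10, Mmp11 and Mmp14 at day 6 were -0.26, 0.34, -0.32, 0.03 and 0.08 in that order, with overlapping groups and limma adjusted p-values of 0.643 to 0.963. That of Mmp11 lay between -0.13 and 0.25 when single libraries were left out. Timp2 had 30814 ± 5662 normalized reads with IgG and 30492 ± 4846 with antibody (n = 4 each), and the log2 fold change was -0.01, with 0.36 for Timp1 and 0.17 for Timp3. Timp4 was below the minimum. Of the 48 tested genes in the 6 lists limma and edgeR called none, 8 had an unadjusted limma p under 0.05 and DESeq2 called 1. Over all genes 8.6% had an unadjusted limma p under 0.05, and DESeq2 called 1.17%.

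Members were also compared within groups, as the correlation across the 27 tumour libraries of deviations from the group mean of log2(RPM + 1), given as a description without a test. The libraries share tissue makeup, depth and table. The highest Pearson correlations among members were between Mmp3 and Mmp10 (0.59) and between Mmp11 and Mmp14 (0.58), followed by Mmp10 and Mmp13 (0.57), Mmp3 and Mmp9 (0.56) and Mmp10 and Mmp12 (0.54). Mmp3 and Mmp10 share transcript sequence, as given above, and its part in their correlation was not tested. Mmp3, Mmp10, Mmp12 and Mmp13, the chromosome 9 members, correlated with each other at 0.22 to 0.59, and Mmp11 correlated with Mmp13 at 0.50. A window of each chromosome 9 member also held TGANTCA, for Mmp12 only that of the downstream start. The part of position or motif in these values was not tested. Mmp9, which had no matched window, correlated with Mmp3, Mmp10, Mmp12 and Mmp13 at 0.56, 0.47, 0.33 and 0.07 in that order. The lowest value was between Mmp9 and Mmp19 (-0.30).

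**Figure D5:**
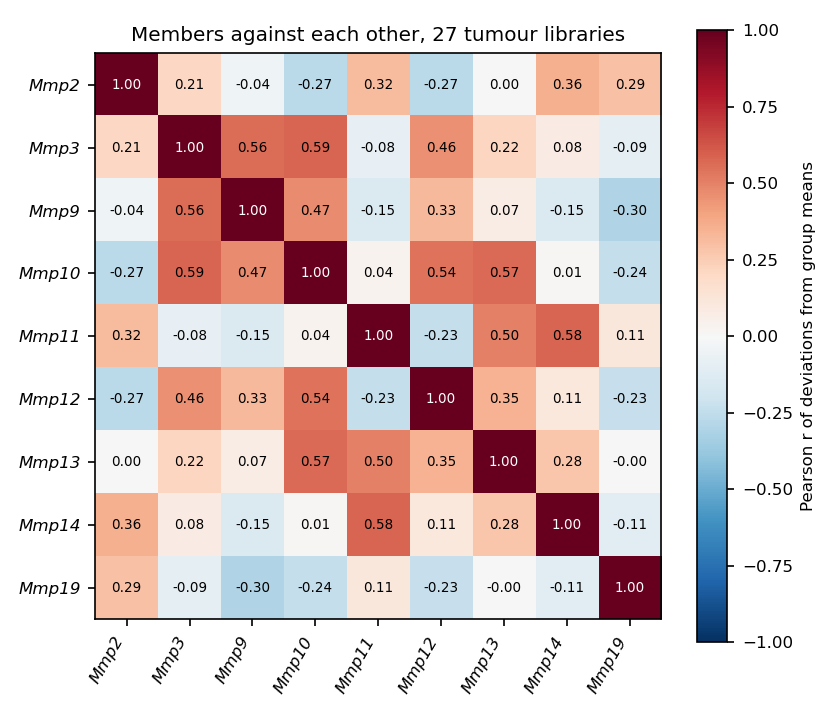
Pearson correlation (colour and number) of the 9 genes with each other, over deviations from group means in 27 tumour libraries of 6 groups. Values range from -0.30 for Mmp9 with Mmp19 to 0.59 for Mmp3 with Mmp10.

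Among 11535 genes with a mean of at least 1 RPM in tumours, the 3 most like Mmp2 were Col3a1 (0.84), Thbs2 (0.80) and Sema5a (0.78). Col3a1 encodes a fibrillar collagen chain and is on the fibroblast marker list, and Thbs2 fell in knockout tumours in Rag1-/- hosts as given above. Most like Mmp3 were Cpxm1 (0.82), Gpm6b (0.81) and Pcsk5 (0.80), and most like Mmp10 Col23a1 (0.65), Lamb3 (0.63) and Cnih2 (0.62), of which Lamb3 encodes a basement membrane laminin chain. For Mmp11 the genes were Mxra8 (0.87), Arsa (0.86) and Dcaf8 (0.85), and for Mmp13 Polr3g (0.83), Zbtb44 (0.82) and Rprd1b (0.78). Those for Mmp9 were Fcrlb (0.72), Rdh12 (0.71) and Cdh24 (0.71), for Mmp12 Ddhd2 (0.74), Zfp941 (0.70) and Ccnl1 (0.69), for Mmp14 Nicn1 (0.73), B4galt7 (0.70) and Adamtsl5 (0.69) and for Mmp19 Phtf1 (0.73), Marveld1 (0.71) and Ralgds (0.71). Each is a highest value picked from 11535 genes over 27 libraries.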

How the data were processed

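RNA was extracted with Trizol, and about 500 ng per library was prepared by the Illumina TruSeq stranded mRNA guide, per the labels' protocols. The submitters' processing notes name CASAVA, TopHat, DESeq2 and mm10 (the same build as GRCm38), with the counting tool and annotation not given in the sources used. The authors deposited 4 tables, normalized separately, whose values are of the signal kind, read counts per gene over each library's size factor. Dividing by each library's step gave whole reads within 0.01 for 100% of values in all 32 libraries, from which depth, RPM and RPKM were computed. Group means and fold changes, 18 columns, stayed unused. The authors' deposited p-values and adjusted p-values are quoted as theirs.

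Each table was tested alone in limma 3.58.1 (R 4.3.3), with trended variance, as log2 of the normalized count + 1, for genes whose table mean reached 10, two-sided, with no covariate, and called at a Benjamini-Hochberg adjusted p under 0.05 over all genes tested. This scale understates changes of weakly expressed genes. Knockout effects in the 2 hosts were compared by their difference over its standard error. The scripts were tested on simulated data. All 9 members were named, list genes when called (at most 4 per list and comparison), and the 3 genes most like each member. Members and gene lists were chosen with earlier results of these data known. Alternatives were edgeR 4.0.16, DESeq2 1.42.0, limma without trend, a pseudocount of 0.5 or 5, a minimum mean of 50 or none, upper-quartile or quantile scaling, a block for replicate number, and leaving out each library. Tables and figures were made in Python 3.11.15 (pandas 2.3.3, matplotlib 3.10.9). Intervals on reads of 0 cover counting error only.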

Additional observations from a re-analysis of the deposited data

Results flagged for a closer look

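Of 54 sets of 1 member in 1 group of 4 or 5 libraries, 8 held a library far from the others by Dixon's test, which flags about 1 in 20 such sets by chance. In wild-type tumours at day 4, tumour 1 had the lowest Mmp10 (16.7 normalized reads, next 77.8) and the highest Mmp2 (5315, next 3095). Tumour 4 of the same group had the highest Mmp3 (2844, next 711) and the highest Mmp9 (1278, next 439.7). In knockout tumours at day 4, tumour 5 had the lowest Mmp3 (207, next 2393). In knockout tumours of Rag1-/- hosts, tumour 2 had the highest Mmp12 (2286, next 1449) and tumour 3 the lowest Mmp19 (705, next 1061). At day 6, IgG tumour 1 had the highest Mmp14 (50729.7, next 41313).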

How the results depend on the processing

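The Rag1-/- calls of Mmp13 and Mmp11 held in all alternatives run, with log2 fold changes of 0.86 to 0.97 and -0.50 to -0.42 when single libraries were left out. Members called in culture numbered 0 with limma, 2 with DESeq2, and 0 to 3 with 1 library left out, the 3 being without wild-type library 1, where 1655 genes were called (14.1%) in place of 39. Without another culture library 2 to 8 were. At day 4 DESeq2 called 1 member, Mmp11. No paired design was shown, since only 2 of 5, 2 of 4 and 2 of 4 same-numbered pairs in Rag1-/- hosts, at day 4 and at day 6 correlated above 0.1. Day 6 pairs 1 and 4 stood apart, at 0.45 and 0.35, whereas pairs 2 and 3 were each at -0.20. The highest pair in Rag1-/- hosts or at day 4 reached 0.15. With the replicate number as a block, limma called 2411 genes in place of 2904 in Rag1-/- hosts, adding Mmp9 (0.55, adjusted p = 0.0248), and 0 at day 6. At day 4 the block also leaves out knockout tumour 5, whose number no wild-type tumour has. It gave 2 calls in place of 5, and without that tumour and without the block there were 50. For the difference between hosts the block gave 1 called member, Mmp3 (2.45, adjusted p = 0.0353), where 1.77% of all genes were called. Without knockout tumour 5 and without the block the Mmp3 difference was likewise 2.45 and was not called (adjusted p = 0.0731), so the move from 1.72 came with that tumour. Genes called at day 4 numbered 3 to 13 without any other library. Libraries in culture carry no shared numbers. Signs turned under quantile normalization for Mmp10 (0.13) and Mmp3 (0.0017) in culture and for the Mmp10 difference between hosts (-0.24), and for Mmp9 in culture with edgeR (-0.25) and DESeq2 (-0.25). With 1 library left out, signs turned within ranges of -0.30 to 0.014 for Mmp3 and -0.60 to 0.88 for Mmp9 in culture. At day 4 they were -0.14 to 0.66 for Mmp10, -0.14 to 0.33 for Mmp13 and -0.27 to 0.054 for Mmp19. At day 6 they were -1.11 to 0.44 for Mmp3, -0.67 to 0.085 for Mmp10, -0.13 to 0.25 for Mmp11 and -0.014 to 0.17 for Mmp14. For the difference between hosts they were -0.38 to 0.21 for Mmp9, -0.40 to 0.40 for Mmp10, -0.24 to 0.013 for Mmp11 and -0.079 to 0.25 for Mmp19. None of these was called, and the cause was not tested. All other comparisons of a member kept their direction. Depth limits Mmp12 and Mmp13 in culture, with 0 to 9 reads per library, and Mmp10 in Rag1-/- hosts.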
